A study of Rattus norvegicus with 8 samples.

Results

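The 14-3-3 proteins were followed through the transcripts of 6 genes, Ywhab, Ywhae, Ywhag, Ywhah, Ywhaq and Ywhaz, in rat PC12 cells that carry an inducible huntingtin fragment. The members were all probe sets of the array whose annotation gives one of these 6 symbols and no other. They came to 12 of 8799 probe sets: 3 for Ywhaq, 3 for Ywhaz, 2 for Ywhae, 2 for Ywhah, 1 for Ywhab and 1 for Ywhag. A probe set for Sfn, which encodes the remaining mammalian isoform, was not among those annotated to a single symbol, so that gene was not analysed here. All 12 probe sets passed the filter on low signals.

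PC12 is a cell line from a rat pheochromocytoma, a tumour of the adrenal medulla. Its subline Htt14A2.5 stably carries a truncated, mutant first exon of human huntingtin under inducible control, in both groups alike. Of the 8 arrays, 4 held RNA of cells induced with the steroid ponasterone for 48 h and 4 held RNA of cells titled as without ponasterone, with replicates numbered 1 to 4 in each group. The titles set the groups, since the free text of all 8 samples speaks of induction, and whether replicates were separate cultures is not stated. No array held cells given ponasterone but lacking the huntingtin fragment. Effects of the steroid and of the fragment therefore cannot be told apart in any difference between the groups.

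14-3-3 proteins are small acidic adaptors that form dimers and bind partners carrying a phosphorylated serine or threonine in a suitable motif. Binding can hold a partner in the cytoplasm, change its activity or shield it from phosphatases. The genes were named for the activation of tyrosine and tryptophan hydroxylase, and in adrenal chromaffin cells 14-3-3 proteins are also known to act in calcium-dependent exocytosis. Of the isoforms measured, Ywhab encodes beta, Ywhae epsilon, Ywhag gamma, Ywhah eta, Ywhaq theta and Ywhaz zeta.

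The 8 arrays had median signals of 97.5 to 134.9, and the 95th percentile of 38 background control probe sets lay between 101.6 and 183.5. The first principal component (25.4% of the variance) set induced replicate 4 furthest from the other arrays, at 34.42 against a range of -19.45 to 12.65. The second (23.6%) separated the groups, at 9.87 to 22.04 on induced and -19.28 to -12.49 on uninduced arrays. RNA quality was read from control probe sets at both transcript ends. For Gapdh the log2 difference between the 3' and 5' signals ranged from 0.39 to 0.56 in induced and from 0.20 to 0.50 in uninduced cells (exact two-sided permutation p = 0.486). For beta-actin it ranged from -0.67 to 0.58 in induced and from 0.076 to 0.57 in uninduced cells (exact permutation p = 0.8286), and for hexokinase from 0.50 to 1.14 in induced and from 0.87 to 1.37 in uninduced cells (exact permutation p = 0.257). Chromaffin markers gave a mixed check of the cell type. Of 9 measured, with summed signals of 16939 to 18343 in induced and 16912 to 21086 in uninduced cells, 5 lay above the background percentile on all 8 arrays, among them the granin Chgb and the transcription factor Phox2a, while the catecholamine enzymes Th, Ddc and Dbh averaged 52.3, 23.8 and 10.8 in induced cells and 69.97, 31.0 and 7.93 in uninduced cells, within the background range. Of the 7 tested in the limma fit described next, Ret was called higher (log2 difference 0.96) and Phox2a and Gata3 lower (-0.70 and -0.68). Leukocyte and adrenal cortex markers had 0 of 5 genes each above that percentile on all arrays, with summed signals of 132.4 to 348.4 and 95.8 to 241.1 in induced cells and of 61.0 to 267.6 and 130 to 282.3 in uninduced cells. Of 7 fibroblast markers 3 lay above it on all arrays (Thy1, Col3a1 and Col1a1), at summed signals of 4209 to 5369 in induced and 4131 to 5126 in uninduced cells. Of 5 Schwann cell and glia markers 2 did, at 3899 to 4939 in induced and 2867 to 3559 in uninduced cells. These were Ngfr and Pmp22, which were called higher (log2 differences 0.45 and 0.81), while Mbp, S100b and Sox10 were within background in both groups. The part of these markers in the results was not tested.

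Differences between the groups were fitted with limma on log2(signal + 7) over 6118 probe sets, and a probe set was called where its Benjamini-Hochberg adjusted p was under 0.05. A scaled signal shows how much of a transcript was hybridised, and fewer cells expressing a gene and less RNA per cell cannot be told apart in it. Signals of different probe sets depend on their probes, so the isoforms were not ranked by level.

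One 14-3-3 transcript rose on induction. Ywhag was 1.52-fold higher in induced cells, and its probe set was the 1 called among the 12. None was called lower by limma, and at an unadjusted p under 0.05 there were 2 higher and 0 lower, where 8.76% of all tested probe sets were higher and 9.28% lower at that threshold. For comparison, 251 of the 6118 tested probe sets (4.1%) were called higher and 182 (2.97%) lower, together 7.08%. The median log2 difference was 0.069 over the 12 probe sets and -0.049 over all those tested. With 1 probe set per gene it was 0.11 over the 6 genes and -0.054 over the 3620 genes tested. The median size of the difference, sign left aside, was 0.082 for the 12 probe sets and 0.21 for all those tested. These 2 medians were not matched for signal. Most of the 12 probe sets were bright, while all those tested include many dim ones, whose differences have larger errors.

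**Figure D1:**
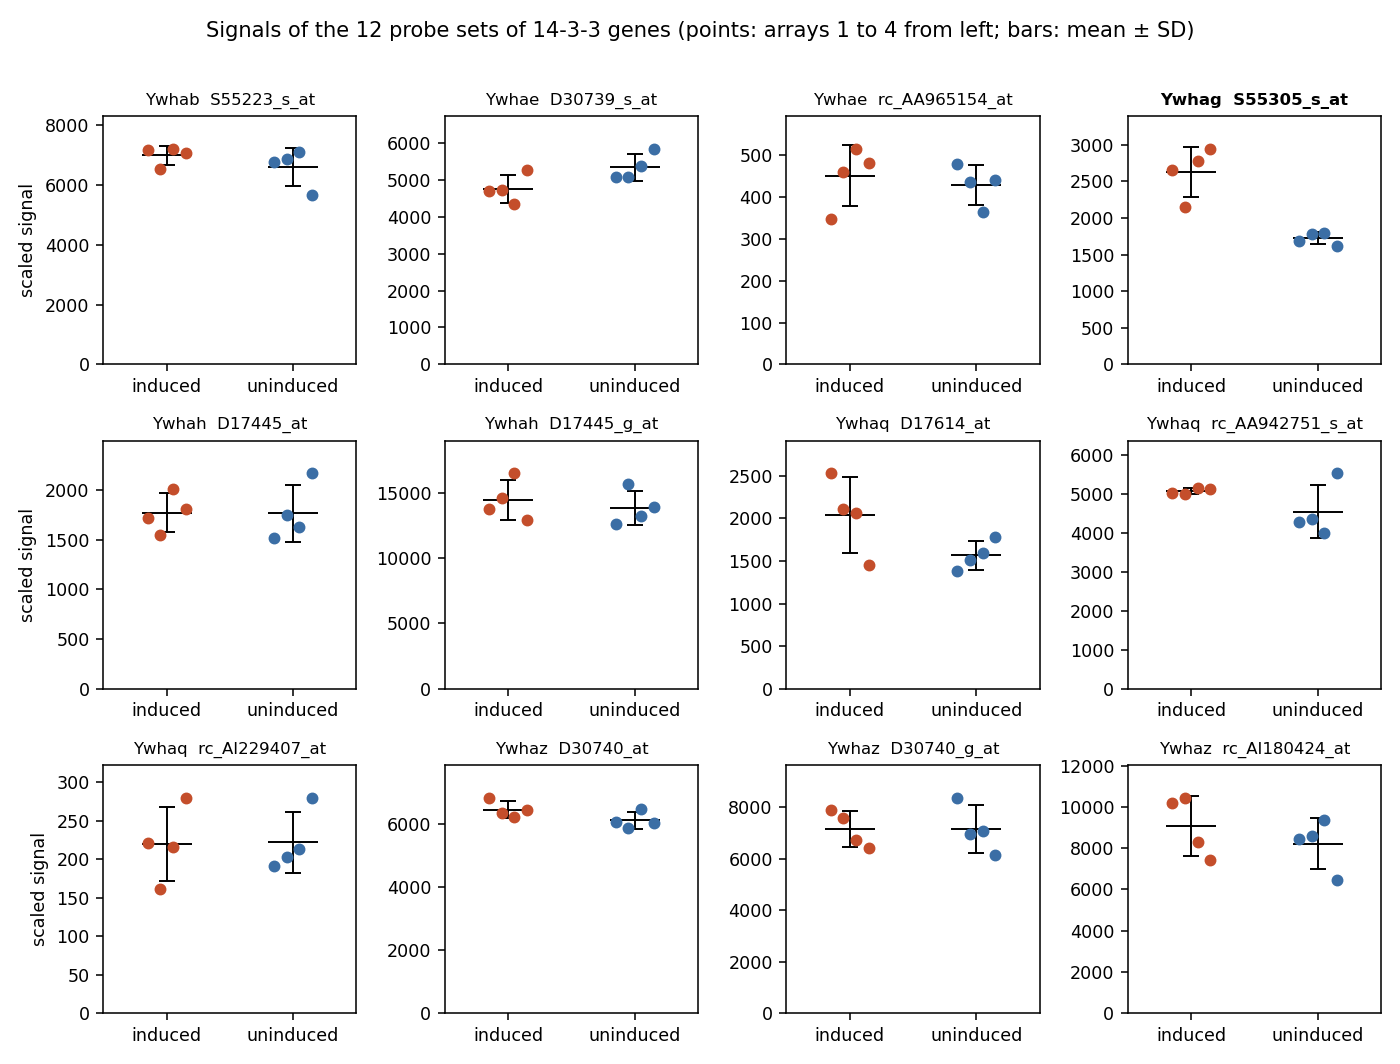
Scaled signal (linear axis from 0) of each of the 12 probe sets on each array, with induced arrays left and uninduced arrays right; points are arrays 1 to 4 and bars the mean ± SD (n = 4). The Ywhag panel (bold) is the one in which no induced array reaches down to an uninduced one, with induced signals from 2144 to 2946 and uninduced signals from 1622 to 1798.

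Ywhag encodes the gamma isoform, which is known to bind phosphorylated tyrosine hydroxylase and whose human gene is mutated in a form of epileptic encephalopathy. Its probe set, S55305_s_at, read 2651, 2144, 2779 and 2946 on induced arrays 1 to 4 and 1688, 1776, 1798 and 1622 on uninduced arrays 1 to 4. Every induced array lay above every uninduced one, and the uninduced arrays lay close together. Such a separation of 4 arrays from 4 was found in 832 of the 6118 tested probe sets (13.6%) and in 1 of the 12 here. The group means were 2630 ± 346 in induced and 1721 ± 81.2 in uninduced cells (SD, n = 4 each). The log2 difference was 0.60 ± 0.11 (SE of the limma fit, 95% interval 0.37 to 0.83, adjusted p = 0.0043). By size it ranked 177th among the 251 rises, so most called rises were larger. The suffix _s_at marks, in the maker's naming, a set whose probes can match more than one transcript, and Ywhag had no second probe set to set beside it.

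The promoter windows of Ywhag and of Ywhah, the eta isoform that was not called, are shown because both hold letters of the cAMP response element, the DNA motif of CREB and its relatives, in a different form. Each runs from 250 bases before to 50 after the transcript start in RefSeq's GRCr8 assembly, 5′ to 3′ along the gene, and capitals mark CGTCA or its reverse complement TGACG. That of Ywhag lies at chr12:26380969-26381268 on the plus strand and that of Ywhah at chr14:81930153-81930452 on the minus strand.
Ywhag: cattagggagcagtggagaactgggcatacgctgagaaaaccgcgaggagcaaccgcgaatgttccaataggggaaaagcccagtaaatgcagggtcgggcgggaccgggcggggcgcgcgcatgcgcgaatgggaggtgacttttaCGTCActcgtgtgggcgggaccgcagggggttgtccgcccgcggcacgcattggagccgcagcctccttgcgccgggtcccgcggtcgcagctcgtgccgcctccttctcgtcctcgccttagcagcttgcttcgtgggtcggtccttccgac
Ywhah: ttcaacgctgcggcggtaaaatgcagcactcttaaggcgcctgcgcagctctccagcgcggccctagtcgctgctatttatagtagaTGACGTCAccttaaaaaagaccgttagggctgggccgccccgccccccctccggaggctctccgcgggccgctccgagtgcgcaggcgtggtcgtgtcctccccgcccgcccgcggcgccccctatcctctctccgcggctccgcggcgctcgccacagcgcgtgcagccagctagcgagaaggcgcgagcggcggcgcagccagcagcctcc

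CGTCA, searched on both strands, occurred in 1 copy in the window of Ywhag, at position -103 from the transcript start. The window of Ywhah held the full palindrome TGACGTCA at position -163, in which both overlapping copies of CGTCA lie. That of Ywhae, not called and not printed here, held 1 copy of CGTCA, as did that of Ywhag. Those of Ywhab and Ywhaq held 0. Of 33469 rat promoter windows of this length, 7097 (21.2%) held CGTCA and 612 (1.83%) held TGACGTCA. Among the 2974 tested genes with a window the shares were 32.1% and 2.79%. The AP-1 motif TGANTCA was in 0 of the 5 windows, in 7.33% of all and in 5.92% of those of tested genes. The GC box GGGCGG was in all 5, with 4 copies in Ywhag, 4 in Ywhah, 3 in Ywhab, 2 in Ywhaq and 1 in Ywhae. It was in 33.1% of all windows and in 63% of those of tested genes. CCAAT was found in Ywhag (2 copies), Ywhaq (3) and Ywhab (1) and in 37.5% of all windows and 39.6% of those of tested genes. TATAAA was found in Ywhah alone (1 copy), in 14.2% of all and in 9.78% of those of tested genes. The 5 windows had 65.7% to 69.7% G and C, against a median of 51.7% over all windows and 61% over those of tested genes. Ywhaz had no entry in the promoter table. These matches describe letters in the windows and no binding was measured.

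Ywhaq encodes the theta isoform, also called tau, which was first known from T cells. None of its 3 probe sets was called, and D17614_at had the next largest difference of the 12. D17614_at read 2528, 2105, 2059 and 1448 on induced arrays 1 to 4 and 1381, 1505, 1591 and 1785 on uninduced arrays 1 to 4. Induced arrays 1 to 3 lay above all 4 uninduced arrays, and induced array 4 lay among the uninduced ones. The log2 difference was 0.36 ± 0.15 (limma adjusted p = 0.244). Without induced replicate 4, the lowest induced array here, it was 0.51 and was called (adjusted p = 0.0252). This was the 1 of 17 alternatives in which it passed. Without induced replicate 1, the highest, it was 0.24 (adjusted p = 0.471), the lowest value of the 17.

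The brightest Ywhaq probe set, rc_AA942751_s_at, read 5029, 4990, 5147 and 5132 on induced arrays and 4284, 4358, 3997 and 5532 on uninduced arrays. The induced arrays were within a narrow band, and uninduced array 4 lay above all of them while the other uninduced arrays lay below. Its log2 difference was 0.17 ± 0.10 (adjusted p = 0.428). Leaving out 1 array gave from 0.11 (without uninduced replicate 3, adjusted p = 0.695) to 0.27 (without uninduced replicate 4, adjusted p = 0.0604). The dimmest, rc_AI229407_at, ranged from 161.8 to 279.1 in induced and from 191.0 to 279.9 in uninduced cells, close above the background percentile, with a log2 difference of -0.027 ± 0.20. Between the 3 Ywhaq probe sets the responses differed by 0.18 to 0.38, and none of these differences passed an exact test.

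Ywhae encodes epsilon, a partner of the dynein regulator Ndel1 that is lost in the human brain malformation of Miller-Dieker syndrome. Its brighter probe set, D30739_s_at, was the lowest in response of the 12. It read 4701, 4719, 4332 and 5253 on induced arrays 1 to 4 and 5060, 5077, 5365 and 5837 on uninduced arrays 1 to 4. Induced arrays 1 to 3 were below all uninduced arrays, and induced array 4 overlapped with them. The log2 difference was -0.17 ± 0.088 (95% interval -0.36 to 0.024, adjusted p = 0.359). The second probe set, rc_AA965154_at, ranged from 347.2 to 516.0 in induced and from 363.7 to 478.3 in uninduced cells (log2 difference 0.059 ± 0.15).

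Ywhaz encodes zeta, a well studied partner of the kinase Raf and of the apoptosis factor Bad. Its probe set D30740_at read 6848, 6352, 6222 and 6457 on induced arrays and 6073, 5888, 6499 and 6047 on uninduced arrays. The groups overlapped, and the log2 difference of 0.079 ± 0.076 had the smallest error of the 12 (95% interval -0.087 to 0.24, adjusted p = 0.678). D30740_g_at, from the same GenBank sequence, ranged from 6407 to 7877 in induced and from 6129 to 8371 in uninduced cells (log2 difference 0.0047 ± 0.11). rc_AI180424_at ranged from 7412 to 10448 in induced and from 6475 to 9353 in uninduced cells (log2 difference 0.14 ± 0.14). On both of these the arrays numbered 4 had the lowest signal of their group.

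Ywhab encodes beta, another partner of Raf. It read 7169, 6527, 7217 and 7059 on induced arrays and 6779, 6871, 7118 and 5677 on uninduced arrays. Uninduced array 4 was the lowest of the 8 and the others overlapped. The log2 difference was 0.085 ± 0.090 (95% interval -0.11 to 0.28, adjusted p = 0.713).

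Ywhah encodes eta, which in human cells is known to bind the ubiquitin ligase parkin. D17445_g_at ranged from 12916 to 16496 in induced and from 12617 to 15652 in uninduced cells (log2 difference 0.059 ± 0.099). D17445_at, from the same sequence, ranged from 1548 to 2011 in induced and from 1518 to 2170 in uninduced cells (log2 difference 0.013 ± 0.12). Both overlapped throughout.

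**Figure D2:**
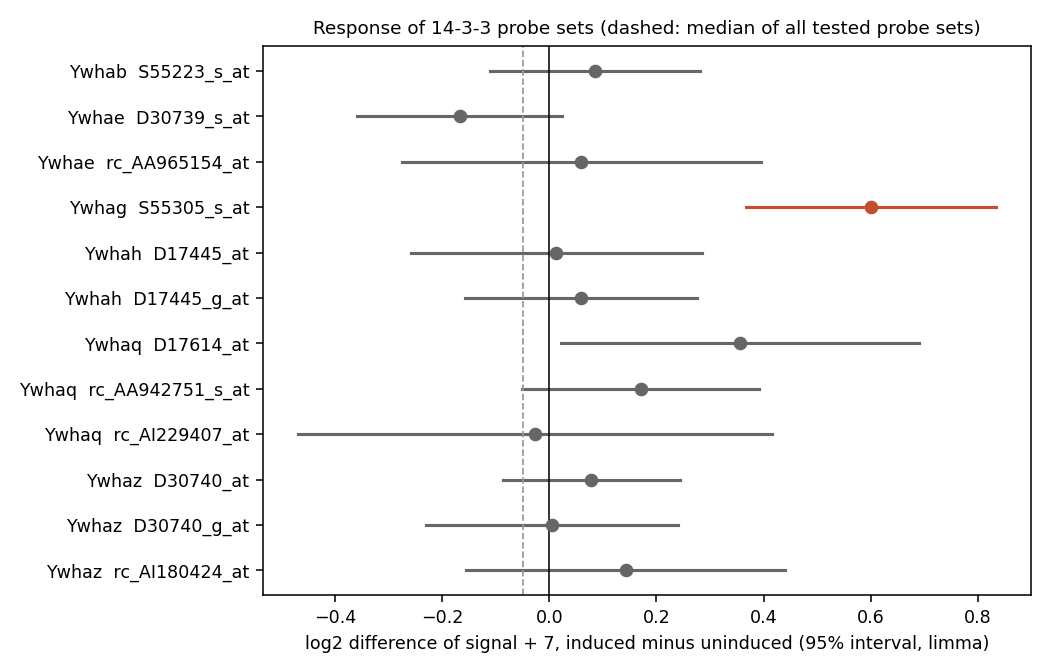
Log2 difference of signal + 7, induced minus uninduced, of each 14-3-3 probe set, with the 95% interval of the limma fit; the dashed line is the median of all tested probe sets (-0.049). The Ywhag interval (red, 0.37 to 0.83) lies clear of 0, and those of the 11 probe sets that were not called (grey) lie within -0.47 and 0.69.

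Across the 11 probe sets that were not called, adjusted p ranged from 0.244 to 0.992 and the 95% intervals of the log2 difference ran from -0.47 to 0.69. The upper end belonged to Ywhaq D17614_at, the one of the 11 whose interval lay above 0 and whose unadjusted p (0.0390) was under 0.05. A change the size of that of Ywhag (0.60) lay inside this interval and outside the other 10. Of the 12 log2 differences 10 were positive and 2 negative. Averaged over a gene's probe sets, the log2 difference was 0.17 for Ywhaq, 0.085 for Ywhab, 0.075 for Ywhaz, 0.036 for Ywhah and -0.054 for Ywhae, none of them called (limma adjusted p from 0.446 to 0.909).

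Whether the isoforms responded unequally was asked from the ratio of their signals within each array, with the brightest probe set of each gene. The order of responses was Ywhag, Ywhaq, Ywhaz, Ywhab, Ywhah and Ywhae. Over the 15 pairs, 4 reached the smallest p that an exact two-sided permutation test of 4 against 4 arrays can give (p = 0.0286). These were Ywhag against Ywhab, Ywhah and Ywhae, and Ywhaq against Ywhae. No pair passed after Benjamini-Hochberg adjustment over the 15 (lowest adjusted exact p = 0.107), and none could have unless 9 of them had reached that smallest p.

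In limma fits of the ratios of all tested probe sets to each of these 6, added after the data had been seen, 2 of the 15 pairs passed. Here p was adjusted over all ratios to the same probe set, and not over the 15 pairs as in the exact test. Each pair could be read in either direction, and the larger adjusted p was kept. Ywhag rose by 0.77 ± 0.13 more than Ywhae (adjusted p = 0.0032) and by 0.52 ± 0.12 more than Ywhab (adjusted p = 0.0157). Against Ywhah the difference was 0.54 ± 0.15 (95% interval 0.23 to 0.86, adjusted p = 0.0520). Against Ywhaz it was 0.46 ± 0.20 (interval 0.045 to 0.87, adjusted p = 0.299), and against Ywhaq 0.43 ± 0.15 (interval 0.096 to 0.77, adjusted p = 0.136). Under this adjustment Ywhag and its neighbour in the order, Ywhaq, were thus not shown to differ in response. Neither were any 2 of the other 5 genes. The lowest adjusted p among their 10 pairs was 0.138, for Ywhaq against Ywhae (0.34 ± 0.12).

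**Figure D3:**
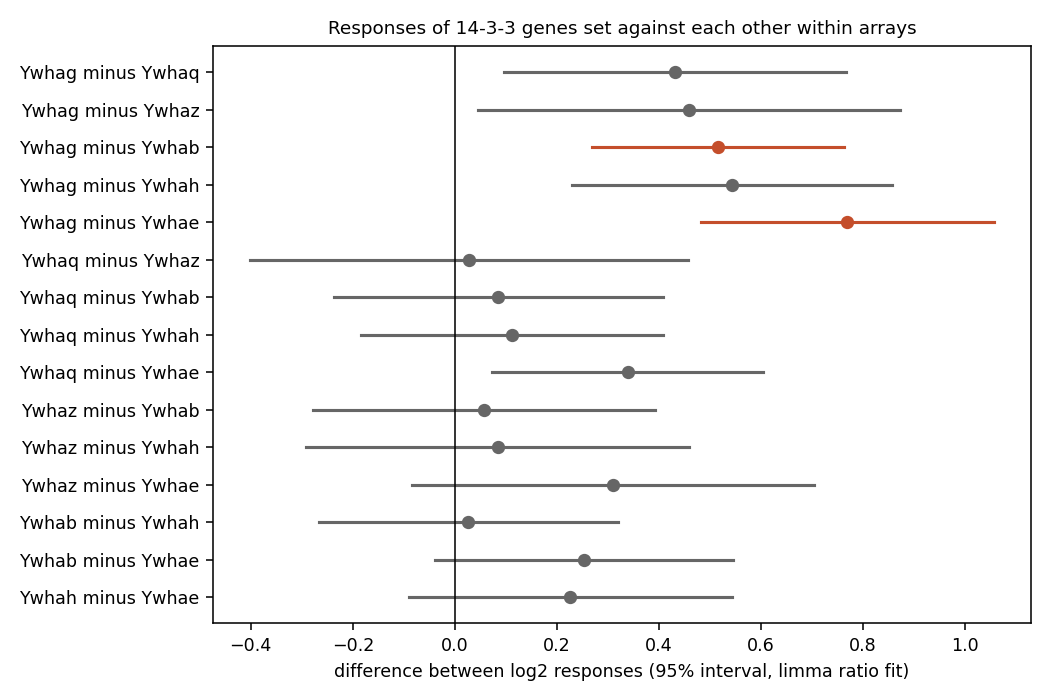
Difference between the log2 responses of 2 genes (first minus second), with the 95% interval of the limma ratio fits, for the 15 pairs of 14-3-3 genes. The 2 pairs in red, Ywhag minus Ywhab (0.52) and Ywhag minus Ywhae (0.77), passed at the adjusted threshold; the 10 pairs without Ywhag lie lower, from 0.027 to 0.34.

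Probe sets of one gene were compared in the same way. Of the 8 pairs within Ywhae, Ywhah, Ywhaq and Ywhaz, none passed the exact permutation test (lowest p = 0.229, adjusted p = 0.503). The widest gap, 0.38 between D17614_at and rc_AI229407_at of Ywhaq, had ratios that spread by an SD of 0.58 in induced and 0.10 in uninduced cells.

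The genes whose profile over the 8 arrays was nearest to that of Ywhag were Ckb, Cidea and Ace. Nearness was the root mean square distance between mean-centred log2 profiles, searched over 3614 other genes. Ckb, the brain-type creatine kinase, was at a distance of 0.0997 and rose by 0.59 ± 0.084, to 8645 ± 517 in induced cells, against 5753 ± 413 in uninduced cells (SD, n = 4 each; adjusted p = 0.0010). Cidea, a lipid droplet protein, was at 0.108 with a log2 difference of 0.50 ± 0.13 (adjusted p = 0.0315). It passed in 6 of 17 alternatives. Ace, the angiotensin-converting enzyme, was also at 0.108 and rose by 0.57 ± 0.12 (adjusted p = 0.0123), and it missed the threshold without both arrays numbered 2 (adjusted p = 0.0560). The arrays numbered 4 held the highest induced value of all 4 genes, and the lowest uninduced value of Ywhag, Ckb and Cidea. Since Ckb, Cidea and Ace were chosen for following Ywhag over these arrays, such sharing comes with the choice.

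**Figure D4:**
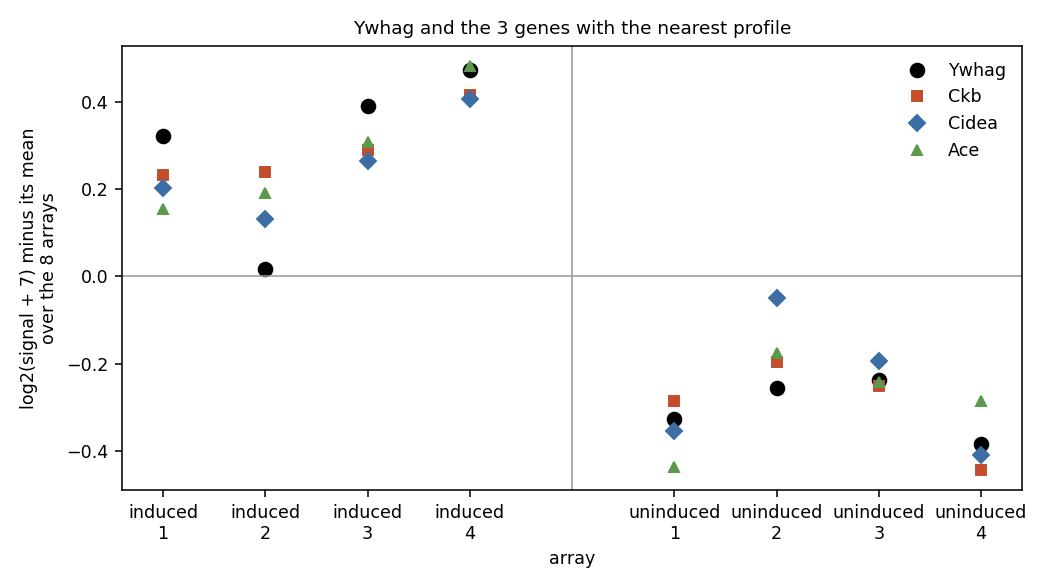
Log2(signal + 7) minus its mean over the 8 arrays, for Ywhag (black) and the 3 genes nearest to it, on induced arrays (left) and uninduced arrays (right). Ywhag runs from 0.017 to 0.47 on induced and from -0.38 to -0.24 on uninduced arrays, and its neighbours were chosen for following it.

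The nearest profiles of the other isoforms belonged to genes that were not called either, which follows largely from choosing them for nearness to uncalled profiles. For Ywhaq they were the tropomyosin Tpm4 (distance 0.046), the adaptor subunit Ap3m1 (0.049) and the granin Chgb (0.050). For Ywhaz they were the proteasome subunit Psmd4 (0.057), the mitochondrial import factor Grpel1 (0.057) and the deubiquitinase Uchl1 (0.062). Those of Ywhae were Gps1 (0.049), a subunit of the COP9 signalosome, the cytochrome oxidase subunit Cox5b (0.064) and the import receptor Tomm20 (0.065). Those of Ywhab were Abhd13 (0.064), the serotonin receptor subunit Htr3a (0.070) and the hexokinase Hk1 (0.071), and those of Ywhah were Polr2g (0.052), a subunit of RNA polymerase II, Nsfl1c (0.066) and Higd2a (0.074). These points share their 8 arrays, and no test was made of nearness.

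The proteins that 14-3-3 isoforms bind, and the kinases that write or regulate their binding, were read from 3 lists. Of the 117 genes listed, 72 were on the array with a single symbol and 51 were tested. Of these 2 were called higher, 1 lower and 48 not called, that is 5.88% called. Over all 3620 tested genes with 1 probe set each, 156 (4.31%) were higher and 105 (2.9%) lower. The median log2 difference was -0.062 for the 51 genes and -0.054 for all genes.

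Among clients known from growth, survival and cell cycle signalling, 0 of 16 tested genes were called, with a median log2 difference of -0.070. At an unadjusted p under 0.05 there were 2 of the 16, Plec and Nr3c1, where 18.8% of all tested genes passed that threshold. Plec, a cytoskeletal linker, differed by 0.35 ± 0.10 (adjusted p = 0.0742). Nr3c1, the glucocorticoid receptor, differed by -0.76 ± 0.29 at signals within background (45.8 in induced and 82.8 in uninduced cells, adjusted p = 0.176). Cdc25b, the phosphatase that activates mitotic kinase, differed by -0.27 ± 0.13, and Wee1, the kinase that opposes it, by -0.32 ± 0.18, with adjusted p of 0.327 and 0.392.

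Among clients and effectors of neuronal and chromaffin cells, 1 of 15 was called higher, 1 lower and 13 not called, at a median of 0.019. Kcnk3, a leak potassium channel whose transport to the cell surface 14-3-3 proteins aid, read 116.3, 188.3, 212.6 and 78.3 in induced cells, against 40.0, 21.0, 43.4 and 28.8 in uninduced cells. All uninduced signals and those of induced arrays 1 and 4 were under the background percentile, so the log2 difference of 1.89 ± 0.37 (adjusted p = 0.0081) depends on the constant added, and was 2.08 with a constant of 1 and 1.41 with a constant of 32. It passed in 15 of 16 alternatives, and not without both arrays numbered 2 (adjusted p = 0.0977). Camkk1, a kinase of calmodulin kinases that 14-3-3 proteins bind once it is phosphorylated, read 544.7, 549.9, 620.1 and 567.3 in induced and 833.8, 682.4, 727.0 and 884.7 in uninduced cells. The groups did not overlap, and the log2 difference was -0.44 ± 0.12 (adjusted p = 0.0428). It passed in 5 of 17 alternatives.

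Dcc, a netrin receptor, was not called (adjusted p = 0.421), and its signals of 28.3 to 75.8 in induced and 9.8 to 47.7 in uninduced cells lay under the background percentile on all arrays. Its difference of 0.87 ± 0.51 was 1.07 with a constant of 1 and 0.51 with a constant of 32. Add2, an adducin, differed by 0.41 ± 0.31 (adjusted p = 0.556), by 0.11 without uninduced replicate 1 and by 0.65 without uninduced replicate 4. Th, the rate-limiting enzyme of catecholamine synthesis and the partner that gave the family its gene name, read 32.5, 34.8, 48.4 and 93.5 in induced cells and 41.9, 33.4, 40.5 and 164.1 in uninduced cells. These signals were under the background percentile on all arrays except uninduced array 4, with the arrays numbered 4 highest in both groups. The difference of -0.20 ± 0.51 (adjusted p = 0.910) turned to 0.28 without uninduced replicate 4.

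Among kinases, 1 of 20 was called higher, 0 lower and 19 not called, at a median of -0.080. At an unadjusted p under 0.05 there were 5 of the 20, in both directions, where 18.8% of all tested genes passed that threshold. Camk2d is the delta chain of calmodulin kinase II, a kinase known to phosphorylate tyrosine hydroxylase at a site that 14-3-3 proteins bind. Its brightest probe set read 1722, 1456, 1771 and 1568 in induced cells, against 1070, 1063, 1104 and 1316 in uninduced cells. The groups did not overlap, and the log2 difference was 0.52 ± 0.11 (adjusted p = 0.0116). It passed in 14 of 17 alternatives. Its other probe sets differed by 0.51, 0.11 and -0.024 and were not called. Mark1 and Mark2, kinases of the Par-1 family, differed by 0.49 ± 0.15 and -0.997 ± 0.42, and Camk2g, the gamma chain, by -0.48 ± 0.21, with adjusted p of 0.0878, 0.239 and 0.245.

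**Figure D5:**
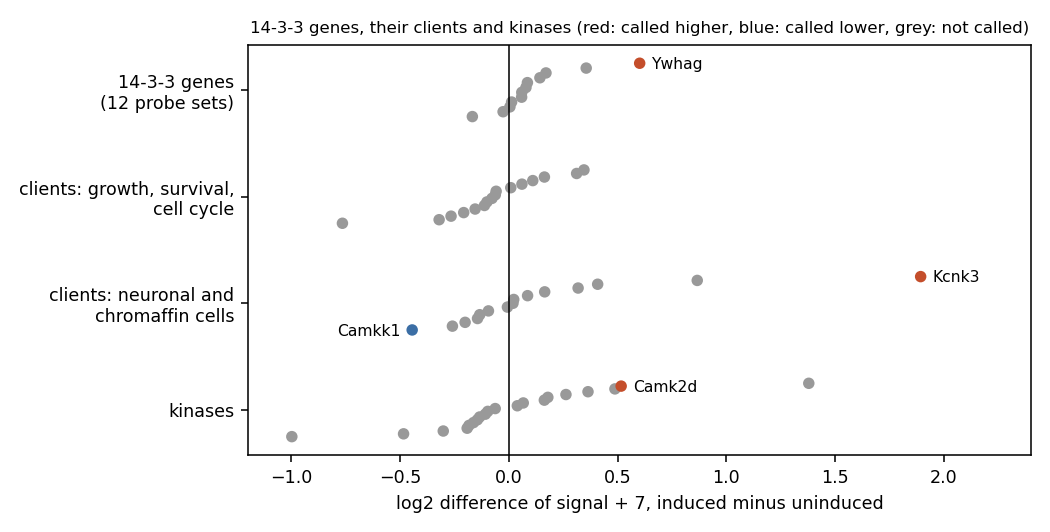
Log2 difference of signal + 7, induced minus uninduced, of the 12 probe sets of 14-3-3 genes and of 1 probe set for each tested gene of the 3 lists; the height of a point within a row only orders it by its value. Called genes are Ywhag, Kcnk3 and Camk2d (higher, red) and Camkk1 (lower, blue), and the other points (grey) spread to both sides of 0.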

How the data were processed

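RNA was measured on 8 Affymetrix-type rat arrays of 8799 probe sets, 1 per sample. The deposited values are intensities, 1 scaled linear signal per probe set and array; each array's trimmed mean (2% from each end) was near 500.8, which shows a scaling made before deposit. Its program is not given in the labels or file headers. With 8 arrays in all, precision is limited by their number. Symbols came from the platform's annotation (1 symbol for 7018 probe sets, several for 308, none for 1473), and all 6 gene identifiers matched RefSeq. Control probe sets (59) and those with a mean signal under the 30th percentile (36.3) were left out. To log2(signal + 7), 7 being the rounded 10th percentile, a linear model with an intensity-dependent prior was fitted in limma 3.58.1 (R 4.3.3). It had 6 degrees of freedom from residuals and 5.78 from the prior. Errors are SEs for log2 differences and SDs for signals. The fit was also tested on simulated data with 200 changed probe sets. It recovered 27% of log2 changes of 0.6 and 55% of changes of 1, and 7 of its 89 calls were false. A probe set that was not called is thus not shown to be unchanged. No column of per-sample values was left unused (0).

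Ratios within arrays were tested by exact two-sided permutation over 70 divisions of 4 against 4. All p-values measure the spread between these samples, which may be technical. Named genes were every member probe set; of the client and kinase lists the called genes, the first 4 of each list by p-value, and Th; and the 3 nearest profiles of each gene's brightest probe set. Members and lists were chosen with earlier results of these data known. Replicate numbers are shared between groups, but deviations of same-numbered arrays correlated at -0.14, 0.057, -0.087 and 0.19 for numbers 1 to 4. The highest correlations with an array of another number were 0.202, 0.125, 0.202 and 0.142. Same-numbered arrays were therefore not taken as pairs, although for number 4 their correlation was the higher. Alternatives were the constants 1 and 32, no filter or a 50th-percentile filter, median centring, quantile normalization, no intensity trend, the number as a block, leaving out both arrays numbered 2 (their source label is worded differently) and each array in turn.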

Additional observations from a re-analysis of the deposited data

Results flagged for a closer look

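Of 86 groups of 4 signals examined (43 named probe sets in each group), 4 held an array far from the other 3 by Dixon's criterion, where chance flags about 1 in 20, and 0 of the 24 groups of 14-3-3 probe sets did. All 4 were uninduced replicate 4. It read 164.1 for Th against 33.4 to 41.9 on the other uninduced arrays, 2239 for Plec against 1799 to 1873, 1316 for Camk2d against 1063 to 1104, and 1631 for Hk1 against 1845 to 1871. The cause was not tested.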

How the results depend on the processing

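Ywhag kept its rise and its call in all 17 alternatives (log2 difference 0.54 to 0.71, adjusted p 0.0015 to 0.0363). The replicate block gave 1 14-3-3 probe set called higher and 0 lower, as without it, and ended the call of Camkk1 (0 lower genes in the 3 lists). Leaving out 1 array gave 1 to 2 14-3-3 probe sets called higher, 2 without induced replicate 4 (Ywhag and Ywhaq D17614_at). Over all probe sets, median centring called 167 higher and 63 lower (median log2 difference -0.015, against -0.049), the fit without an intensity trend 101 lower, leaving out both arrays numbered 2 141 higher and 80 lower, and leaving out 1 array 113 to 164 lower, the fewest without uninduced replicate 3, then 120 without uninduced replicate 2. In the 3 lists, median centring called 1 gene higher and 0 lower, averaging the probe sets of each gene 1 higher and 2 lower, and leaving out 1 array 0 to 1 lower. The limma ratio fits passed 2 gene pairs, the exact test 0. Differences near 0 turned sign in 16 of the 187 values of the 11 uncalled 14-3-3 probe sets, in 5 of them: rc_AI229407_at with median centring (0.0071) and without both arrays numbered 2 (0.070), D30740_g_at without both arrays numbered 2 (-0.033), and, without 1 array, over ranges of -0.15 to 0.11 for rc_AI229407_at, -0.066 to 0.084 for D30740_g_at, -0.017 to 0.18 for rc_AA965154_at, -0.055 to 0.12 for D17445_at and -0.0075 to 0.12 for D17445_g_at. Camkk1 (adjusted p 0.0299 to 0.169 over the 17) lost its call without any 1 array except uninduced replicate 2, and Cidea (0.0209 to 0.107) likewise. Gained calls came without uninduced replicate 4 (Plec 0.0274, Cdc25b 0.0368), without induced replicate 3 (Mark2 0.0305) and without an intensity trend (Nr3c1 0.0259). Th ranged from -0.49 to 0.28. Low signals limit rc_AI229407_at, Th, Kcnk3, Dcc and Nr3c1.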
